A study of Mus musculus with 25 samples.

Results

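The lateral palate of the mouse at E14.5 (E, embryonic day) was compared between its posterior and its anterior end. The comparison took 6 of the 25 libraries of the study, 3 of the anterior lateral and 3 of the posterior lateral compartment, and the 10452 of 37406 listed genes that reached 5 RPKM (a read density, corrected for the length of the transcript and for the number of mapped reads) in at least 3 of the 6. Of the remaining genes, 17372 were listed at 0 in all 6 libraries and 9582 were above 0 but below that minimum. All samples were wild type embryos of the outbred CD1 strain, untreated, and the tissue of each compartment was cut from sections by laser capture microdissection. The lateral compartment is the outer part of the palatal shelves, away from the midline seam. The labels tie no library to an embryo, so the p-values measure the spread between libraries, which may be in part technical.

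The palate grows as a pair of shelves of neural crest mesenchyme covered by epithelium, which rise above the tongue and fuse at the midline. Its anterior part becomes the bony hard palate and its posterior part the muscular soft palate. Transcription factors with the homeodomain, T-box and related DNA-binding folds mark the ends of this axis, and WNT, BMP, FGF and hedgehog signals pass between epithelium and mesenchyme and drive shelf growth. Mutation of several of these genes causes cleft palate in mice and humans.

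Posterior lateral replicate 1 stood apart from the other 5 libraries. Its log2 values correlated with theirs at 0.802 to 0.852 across genes, against 0.919 to 0.941 among the anterior libraries and 0.921 between the other posterior pair. The median SD of a gene on the log2 scale was 0.14 in the anterior group, 0.267 in the posterior group and 0.148 in the posterior group without that library. The values themselves gave the depth, since low RPKM values are whole multiples of what 1 read is worth. They implied 2330000 to 3000000 reads for 5 libraries and 5930000 reads for posterior lateral replicate 1. These are the reads behind the RPKM values, left after the authors removed reads with several alignments and duplicates, and not the reads sequenced. A transcript of 2000 bases at 5 RPKM thus rested on 23.3 to 59.3 reads with a counting error of 13% to 20.7%. Alignment names put the 6 libraries in 3 sequencing runs, of which a single run held both groups, with anterior replicate 3 and posterior replicates 2 and 3.

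Between the 2 ends of the lateral palate, 145 genes differed at an adjusted p under 0.05 by limma's moderated test on log2(RPKM + 0.1). Of these, 71 were higher in the posterior (0.679% of the genes tested) and 74 were higher in the anterior (0.708%). Most differences were large, since 136 of the 145 exceeded 2-fold and 28 posterior and 33 anterior genes exceeded 4-fold, whereas the median absolute log2 fold change of all tested genes was 0.17. The cut-offs of the study, called the study thresholds below, were a p under 0.05, taken here as unadjusted, and more than a 2-fold change. Applied to the limma p-values, they gave 148 genes higher in the posterior (1.42%) and 177 in the anterior (1.69%). For its own pooled anterior-posterior comparison the study used the Audic-Claverie test and a minimum of 10 RPKM in 6 samples. The 148 and 177 are therefore not counts from the study's own test of this axis. The 3 values of one group lay wholly above those of the other for 850 posterior-high genes (8.13%) and 1127 anterior-high genes (10.8%), and the 145 genes were all among them. The 5 RPKM minimum bore on these counts, because 68 of the 145 reached it in all libraries of one group and in none of the other, a pattern held by 175 of all tested genes. Another 55 of the 145 passed the minimum in all 6 libraries. The levels were moderate: the median of the higher group's mean was 19.6 RPKM for the posterior genes and 15.6 RPKM for the anterior genes, and 3 posterior and 9 anterior genes stayed under 1 RPKM in every library of the lower group.

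**Figure D1:**
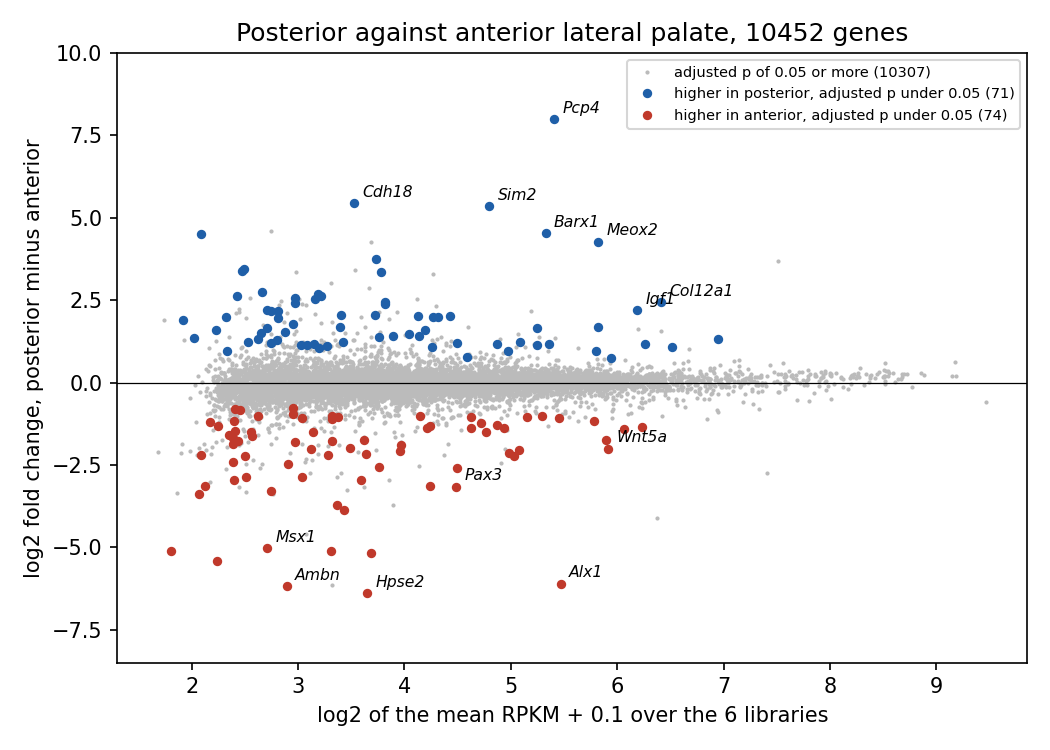
Log2 fold change of each of the 10452 tested genes (vertical axis, posterior minus anterior lateral) against the log2 of its mean RPKM + 0.1 over the 6 libraries. Blue points are the 71 genes higher in the posterior and red points the 74 higher in the anterior at an adjusted p under 0.05; grey points are the other tested genes, which crowd around 0.

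The number of calls depended on single libraries. Leaving out posterior lateral replicate 1 raised the count to 247 genes, 133 of them shared with the 145. Leaving out anterior lateral replicate 1, 2 or 3 lowered it to 46, 36 or 17, and leaving out posterior lateral replicate 2 or 3 to 111 or 48. With the sequencing run as a term over the 6 libraries, so that the difference came from the shared run alone, 8 genes were higher in the posterior and 11 in the anterior. All 145 genes had the same sign in that fit and under every library left out. Their groups did not overlap, so the sign could not change in these fits and is no measure of stability. Among the 59 called genes that were picked for description by a rule of size within the comparison and within gene lists, 15 passed with each of the 6 libraries left out: Alx1, Hpse2, Ambn, Msx1as, Actg2, Aoc3, Pax3, Krt8, Tfap2a, Nrp1, Wnt5a, Col12a1, Phactr1, Nefm and Pcp4. For the other 44 the highest adjusted p with 1 library left out lay between 0.0515 (Slit2) and 0.211 (Abcc9). Among them, Gsc, Ptgfr, Tbx22, Eya4, Pdgfc, Clec11a, Tnn, Mirlet7e, Gkn3, Foxl2os, Tshz2 and Gata2 passed in only 1 of the 6 fits.

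Many of the factors that mark the palatal axis differed between the 2 ends of the lateral compartment. Of 11 tested genes of that list, 4 of the 5 described as posterior were higher in the posterior and 2 of the 6 described as anterior were higher in the anterior. Over all tested genes, 0.679% were called in the posterior and 0.708% in the anterior. This list and those below were written with earlier results of these data known. Alx1, a homeodomain factor of frontonasal crest, stood at 76.7, 96.1 and 89.0 RPKM in the anterior libraries and at 1.10, 1.31 and 1.10 RPKM in the posterior ones. The groups were far apart, with a log2 fold change of -6.10 ± 0.15 (SE, n = 3 against 3; adjusted p = 2.10e-05), and -6.10 within the shared run. Msx1, a homeodomain target of BMP signalling, measured 12.1, 13.9 and 11.4 RPKM in the anterior and 0.785, 0.543 and 0 RPKM in the posterior (-5.02 ± 0.76, adjusted p = 0.0333). Its call was lost when any anterior library or posterior replicate 2 was left out (highest adjusted p = 0.155), with adjusted p = 0.0252 without posterior replicate 1. It was also lost with a pseudocount of 0.01, quantile normalization, a variance trend, a replicate block, no filter or all 25 libraries in one fit, and the log2 fold change of Msx1 ranged from -6.24 to -3.26 over the alternatives. Msx1as, an antisense transcript that overlaps Msx1 (mm9 chromosome 5, 38211803 to 38213990, inside the Msx1 interval 38211730 to 38215824), was read at 19.5, 29.5 and 26.0 RPKM against 0.693, 0.480 and 0.589 RPKM (-5.18 ± 0.20, adjusted p = 1.84e-04). The amplification kit does not mark strand, so reads of this overlapping pair cannot be told apart.

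Shox2, a homeodomain factor of the anterior palate, was the most abundant of the set but did not pass the adjusted test. It measured 149, 144.0 and 156 RPKM in the anterior libraries and 2.73, 39.4 and 5.83 RPKM in the posterior libraries. The groups did not overlap, but posterior replicate 2 held far more than its 2 partners, and the log2 fold change of -4.10 ± 0.88 had an adjusted p of 0.102. Bmp4, a BMP ligand of the same list named here after its values were seen, overlapped between the groups, at 21.6 to 38.2 RPKM in the anterior and 36.2 to 137 RPKM in the posterior, where replicate 1 was the highest.

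At the posterior end, Barx1, a homeodomain factor of the soft palate and pharyngeal arches, stood at 60.7, 86.1 and 81.6 RPKM against 6.77, 1.22 and 3.71 RPKM in the anterior (4.53 ± 0.56, adjusted p = 0.0177). Meox2, a homeodomain factor needed for palate closure, measured 149.6, 52.8 and 121 RPKM against 7.33, 4.26 and 3.96 RPKM (4.28 ± 0.43, adjusted p = 0.0104). Neither gene had an anterior value near the lowest posterior one. Sim2, a bHLH-PAS factor whose loss causes cleft palate in mice, was present at 87.9, 16.8 and 57.9 RPKM against 2.38, 0.655 and 0.573 RPKM (5.35 ± 0.73, adjusted p = 0.0226). Tbx22, the X-linked T-box gene mutated in cleft palate with ankyloglossia, read 17.7, 17.0 and 28.8 RPKM against 6.12, 3.26 and 5.70 RPKM (2.06 ± 0.31, adjusted p = 0.0307). Within the shared run the log2 fold changes of Barx1, Meox2, Sim2 and Tbx22 were 4.46, 4.30, 5.54 and 1.94. All 4 lost the call without anterior replicate 3 and some without others, at adjusted p up to 0.0970 for Barx1, 0.0735 for Meox2, 0.121 for Sim2 and 0.123 for Tbx22 over the libraries left out.

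**Figure D2:**
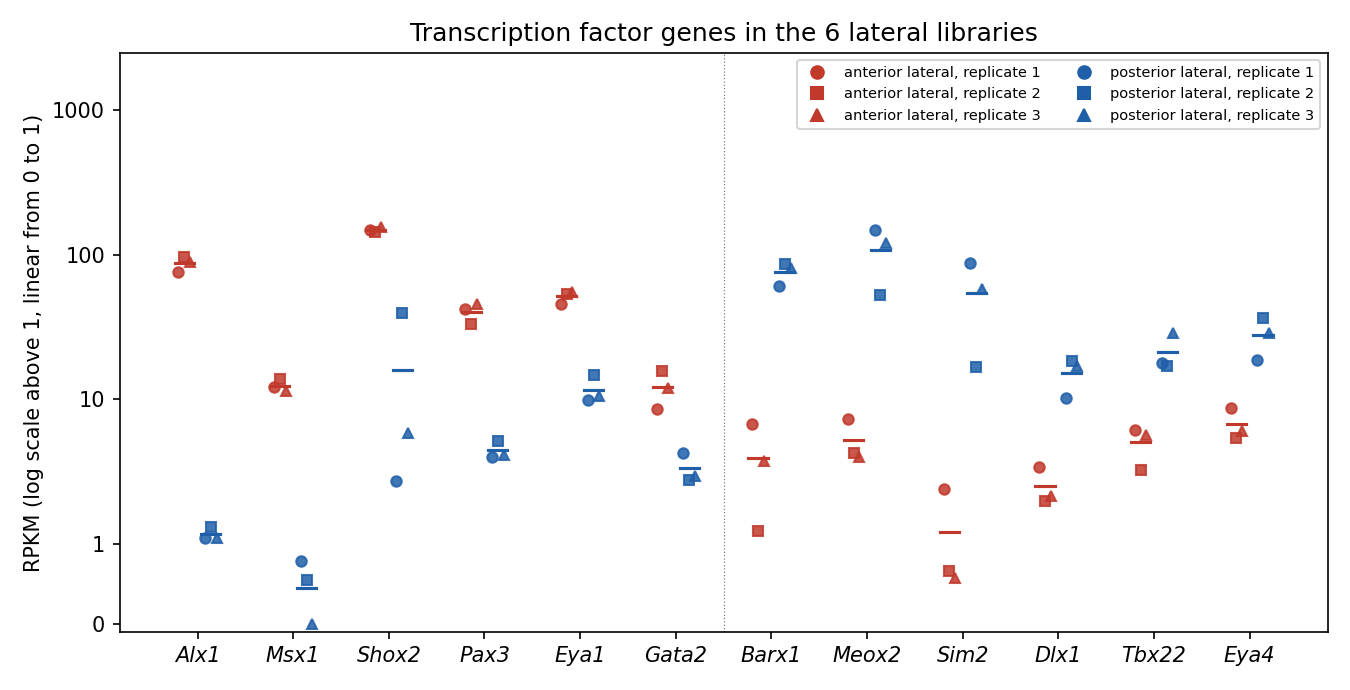
RPKM of 12 transcription factor genes in each lateral library (vertical axis, logarithmic above 1 and linear from 0 to 1), with red symbols for the anterior and blue for the posterior libraries, symbol shape for the replicate and a bar at each group's mean. The 6 genes left of the dotted line were higher in all anterior libraries and the 6 on the right in all posterior ones; the posterior Shox2 values spread from 2.73 to 39.4.

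The promoters of 4 of these homeobox genes are shown because they stand for the 2 ends of the axis and differ in base composition. Each covers 300 bases around a RefSeq start, most of them before it, on the GRCm38.p6 build, read along the gene's strand. Capitals mark the GC box GGGCGG (or CCGCCC on the other strand) and the TATA box TATAAA (or TTTATA). A GC box and a TATA box cannot overlap, whereas a TATA box can overlap its own reverse complement.
Shox2, anterior, chr3:66981722-66982021, minus strand: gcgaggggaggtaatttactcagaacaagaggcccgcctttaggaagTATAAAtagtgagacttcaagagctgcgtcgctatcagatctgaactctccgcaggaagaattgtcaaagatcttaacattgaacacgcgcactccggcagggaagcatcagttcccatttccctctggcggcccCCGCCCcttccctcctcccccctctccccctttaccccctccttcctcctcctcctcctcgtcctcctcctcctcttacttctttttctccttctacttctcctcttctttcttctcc
Msx1, anterior, chr5:37824536-37824835, minus strand: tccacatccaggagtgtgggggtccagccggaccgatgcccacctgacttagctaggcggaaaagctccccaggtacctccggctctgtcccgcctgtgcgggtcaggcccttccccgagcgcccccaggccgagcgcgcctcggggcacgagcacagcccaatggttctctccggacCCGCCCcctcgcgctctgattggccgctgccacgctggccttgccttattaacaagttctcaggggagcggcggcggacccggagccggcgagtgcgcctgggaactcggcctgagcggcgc
Barx1, posterior, chr13:48662786-48663085, plus strand: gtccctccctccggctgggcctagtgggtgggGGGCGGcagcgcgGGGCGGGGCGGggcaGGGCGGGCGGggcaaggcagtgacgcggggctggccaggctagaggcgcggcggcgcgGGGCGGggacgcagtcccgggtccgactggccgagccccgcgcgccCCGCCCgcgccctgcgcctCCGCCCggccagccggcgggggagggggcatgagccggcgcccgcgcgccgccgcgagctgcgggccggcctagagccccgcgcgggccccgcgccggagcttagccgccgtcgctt
Meox2, posterior, chr12:37108290-37108589, plus strand: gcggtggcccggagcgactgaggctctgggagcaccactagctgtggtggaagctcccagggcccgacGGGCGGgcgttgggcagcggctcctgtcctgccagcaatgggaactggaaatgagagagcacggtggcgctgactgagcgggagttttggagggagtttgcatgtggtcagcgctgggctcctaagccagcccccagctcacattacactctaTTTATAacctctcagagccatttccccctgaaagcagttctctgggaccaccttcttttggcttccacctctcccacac

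The Barx1 promoter was 84.7% G and C and held 8 GC boxes, overlapping ones included, whereas the Shox2, Msx1 and Meox2 promoters were 53.3%, 70.0% and 60.7% G and C with 1 GC box each. A TATA box was found once in the Shox2 and once in the Meox2 window. The GC box occurred in 35.7% of all 32851 promoters of the same length and in 71.3% of the 8218 tested genes with a promoter, and TATAAA in 13.6% and 8.21%. Among called genes with a promoter, 35 of 55 posterior genes and 39 of 51 anterior genes held the GC box, and 7 and 5 held TATAAA. The homeodomain core TAATTA, the same on both strands, was found in none of the 4 windows, in 1 of the 55 posterior and 4 of the 51 anterior promoters, in 2.97% of those of the tested genes and in 5.29% of all promoters. The T-box element AGGTGTGA, searched on both strands, was in 1.28% of all promoters and in none of the called genes. A match is a description of the letters in the window and not a measured binding site.

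Across the whole homeobox list, 33 of 51 genes were tested, and 4 were higher in each direction, with a median log2 fold change of -0.26 against -0.03 for all tested genes. The shares called over all tested genes were 0.679% in the posterior and 0.708% in the anterior. Besides the genes above, Pax3, a paired-box factor of neural crest and muscle precursors, read 42.3, 33.2 and 45.4 RPKM in the anterior and 4.01, 5.16 and 4.09 RPKM in the posterior (-3.16 ± 0.18, adjusted p = 0.00154). Tshz2, a teashirt zinc finger factor, showed a smaller difference of -1.07 ± 0.15 (adjusted p = 0.0282). On the posterior side Dlx1, a distal-less factor of the branchial arches, rose from 3.38, 1.97 and 2.14 RPKM to 10.2, 18.3 and 17.0 RPKM (2.55 ± 0.29, adjusted p = 0.0146). Gsc, goosecoid, rose from 2.14, 0.851 and 1.65 RPKM to 6.31, 13.5 and 12.8 RPKM (2.74 ± 0.41, adjusted p = 0.0305). No Hox gene reached the minimum, and 8 of the 26 were listed at 0 in all 6 libraries, with summed levels of 6.97 to 7.70 RPKM in the anterior and 2.56 to 10.4 RPKM in the posterior.

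Among 37 tested members of the other patterning factors, 5 were higher in the posterior and 4 in the anterior (median -0.06). Over all tested genes, 0.679% and 0.708% were called in these directions. The anterior genes came from several families. Eya1, a phosphatase and partner of sine oculis homeodomain proteins, read 45.7, 53.8 and 55.2 RPKM against 9.90, 14.6 and 10.5 RPKM (-2.15 ± 0.19, adjusted p = 0.00575). Tfap2a, the neural crest and epithelial factor AP-2 alpha, read 12.9, 11.8 and 13.0 RPKM against 1.79, 2.29 and 2.45 RPKM (-2.49 ± 0.16, adjusted p = 0.00201). Heyl, a Notch target, and Gata2, a zinc finger factor, had log2 fold changes of -2.16 ± 0.23 and -1.82 ± 0.27 (adjusted p = 0.0121 and 0.0305). In the Eya family the posterior gene was Eya4, at 18.6, 36.5 and 28.8 RPKM against 8.73, 5.39 and 5.99 RPKM (2.02 ± 0.29, adjusted p = 0.0287), so the 2 paralogues differed in opposite directions in these libraries. The Eya4 call held in only 1 of the 6 fits that left out a library (highest adjusted p = 0.148). It was also lost with a replicate block or no filter. Foxp2, a forkhead repressor, rose from 0.455, 1.16 and 1.12 RPKM to 12.1, 9.42 and 8.47 RPKM (3.39 ± 0.34, adjusted p = 0.0104), and Npas3, a PAS-domain factor, had a log2 fold change of 1.77 ± 0.23 (adjusted p = 0.0214). Osr1 and Osr2, odd-skipped factors of the shelf mesenchyme and named here after their values were seen, read 98.4, 113 and 114 against 53.2, 48.1 and 29.6 RPKM (-1.35, adjusted p = 0.0538) and 85.8, 60.1 and 96.5 against 107.7, 30.8 and 36.2 RPKM (-0.68, adjusted p = 0.677).

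The WNT pathway showed the most anterior calls of any signalling list. Of 37 tested genes, 6 were higher in the anterior and 1 in the posterior, with a median of -0.25. The shares over all tested genes were 0.708% and 0.679%. Among ligands, Wnt5a, the non-canonical ligand of the anterior palate, measured 102, 94.0 and 92.6 RPKM in the anterior and 25.01, 24.998 and 21.8 RPKM in the posterior (-2.0 ± 0.13, adjusted p = 0.00201). Wnt2, a canonical ligand, measured 7.12, 10.05 and 8.90 RPKM against 1.17, 2.18 and 1.42 RPKM (-2.41 ± 0.25, adjusted p = 0.0121). These were 2 of the 4 ligands tested. Of 8 secreted inhibitors, 3 were anterior: Wif1, which binds WNT ligands, at 27.4, 20.9 and 26.8 against 6.22, 6.54 and 4.83 RPKM (-2.08 ± 0.18, adjusted p = 0.00575), Dkk2 (-1.49 ± 0.16, adjusted p = 0.0122) and Frzb (-1.23 ± 0.21, adjusted p = 0.0496). Without posterior replicate 1, only 2 inhibitors passed in the anterior, Wif1 and Dkk2 (limma adjusted p = 0.00966 and 0.0179), and Frzb lost its call. None of the 11 receptors and none of the 11 transducers and targets passed. The R-spondins, secreted agonists that raise WNT receptor levels, were split. Rspo1 read 90.7, 91.9 and 107 RPKM in the anterior and 29.5, 48.9 and 33.3 RPKM in the posterior (-1.40 ± 0.21, adjusted p = 0.0325), while Rspo3 read 9.76, 7.41 and 7.94 RPKM and 38.4, 25.1 and 39.9 RPKM (2.01 ± 0.22, adjusted p = 0.0122). Neither pair of groups overlapped.

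The other signalling lists held few calls. In BMP, GDF and activin signalling, 28 genes were tested and 1 passed in each direction (median 0.02), with Msx1, described above, in the anterior. The ligands Inhba and Gdf10 were separated between the groups without passing, Inhba at 51.3, 46.0 and 36.4 against 25.9, 9.98 and 16.6 RPKM (-1.44 ± 0.34, adjusted p = 0.136) and Gdf10 at 3.15, 0.531 and 2.94 against 26.2, 23.8 and 12.2 RPKM (3.42 ± 0.66, adjusted p = 0.0762). Without posterior replicate 1, Inhba passed (adjusted p = 0.0317) and Gdf10 did not (adjusted p = 0.108). In TGF-beta signalling (15 tested, median 0.21), Tgfbr3, the co-receptor betaglycan, was higher in the anterior (-1.04 ± 0.13, adjusted p = 0.0177). Ltbp2, a latent TGF-beta binding protein of the matrix, was higher in the posterior, at 17.3, 11.6 and 10.3 against 3.09, 1.55 and 2.59 RPKM (2.41 ± 0.30, adjusted p = 0.0177).

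No gene of FGF signalling (17 tested, median -0.31), hedgehog signalling (14 tested, median -0.10) or the retinoic acid pathway (12 tested, median -0.11) had an adjusted p under 0.05. By the study thresholds 1 FGF response gene, Spry2, and 3 retinoic acid genes were higher in the anterior. The retinoic acid genes were Stra6, the retinol uptake receptor (10.1, 13.2 and 7.76 against 2.59, 0.584 and 2.55 RPKM), Aldh1a2, which makes retinoic acid (10.5, 14.0 and 11.1 against 1.06, 8.71 and 3.23 RPKM), and Cyp26b1, which degrades it (24.4, 33.4 and 24.5 against 6.27, 16.7 and 13.7 RPKM). Their adjusted p-values were 0.0957, 0.330 and 0.232, and no pair of groups overlapped. Fgf18 was dominated by 1 library, at 34.5, 32.8 and 29.1 RPKM in the anterior and 93.6, 7.62 and 10.5 RPKM in the posterior (adjusted p = 0.830). Without posterior replicate 1 its log2 fold change was -1.83 (adjusted p = 0.0106). Of 10 tested Notch genes, Heyl alone passed, with a list median of -0.55.

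Growth factors outside these pathways were called in the posterior direction, with 6 of 26 tested genes higher there and 0 in the anterior (median 0.07). Among all tested genes, 0.679% and 0.708% were called in these directions. Igf1, insulin-like growth factor 1, read 38.1, 20.6 and 21.4 RPKM in the anterior and 111, 131 and 114 RPKM in the posterior (2.20 ± 0.25, adjusted p = 0.0146). Pdgfc, a platelet-derived growth factor whose loss causes cleft palate, read 2.43, 2.63 and 2.98 against 7.32, 11.1 and 15.1 RPKM (1.96 ± 0.26, adjusted p = 0.0220). Both genes had groups that did not overlap. Clec11a, a secreted osteogenic lectin, Egfr, the EGF receptor, Ptn, the heparin-binding pleiotrophin, and Ntf3, neurotrophin 3, had log2 fold changes of 1.69 ± 0.25, 1.46 ± 0.18, 1.32 ± 0.21 and 1.28 ± 0.20 (adjusted p = 0.0307, 0.0177, 0.0419 and 0.0365). The chemokine Cxcl12 read 57.0, 66.4 and 59.8 RPKM in the anterior and 16.8, 44.0 and 35.3 RPKM in the posterior, with an adjusted p of 0.295. Igf1 and Egfr lost the call without anterior replicate 2, anterior replicate 3 or posterior replicate 3, at adjusted p up to 0.0970 and 0.109.

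Guidance and adhesion genes were called in both directions. Of 58 tested genes, 7 were higher in the posterior and 3 in the anterior (median 0.18), and 5 of the 7 posterior genes belonged to the 20 tested cadherins and leucine-rich repeat proteins. Among all tested genes, the shares called were 0.679% in the posterior and 0.708% in the anterior. Cdh18 and Cdh20, type II cadherins, read 0.497, 0.0999 and 0.640 against 39.4, 10.6 and 17.4 RPKM (5.45 ± 0.62, adjusted p = 0.0146) and 2.80, 0.895 and 1.67 against 37.5, 14.7 and 21.8 RPKM (3.74 ± 0.47, adjusted p = 0.0177). Posterior replicate 1 held the highest level of both cadherins. The leucine-rich repeat genes Lrrc3b, Lrrtm1 and Flrt2 had log2 fold changes of 2.56 ± 0.30, 2.39 ± 0.35 and 1.67 ± 0.18 (adjusted p = 0.0150, 0.0291 and 0.0121). The semaphorins Sema3d and Sema6a were also higher in the posterior (1.41 ± 0.22 and 1.17 ± 0.12, adjusted p = 0.0359 and 0.0121). Without posterior replicate 1, the posterior calls among semaphorins, plexins and neuropilins fell from 2 to 1. On the anterior side, Slit2, a secreted repellent, read 36.4, 40.3 and 38.6 RPKM against 4.75, 6.37 and 8.36 RPKM (-2.58 ± 0.21, adjusted p = 0.00528). Nrp1, a receptor for semaphorins and VEGF, read 56.5, 51.7 and 55.0 against 11.8, 14.7 and 12.8 RPKM (-2.05 ± 0.14, adjusted p = 0.00219), and Slit3 had a log2 fold change of -1.02 ± 0.13 (adjusted p = 0.0213). None of the 14 tested ephrins and Eph receptors passed.

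Matrix genes were called mainly in the posterior, with 6 of 64 tested genes higher there and 1 in the anterior, although the list median of 0.07 was close to that of all genes. Among all tested genes, 0.679% were called in the posterior and 0.708% in the anterior. Col12a1, a fibril-associated collagen of dense connective tissue and tendon, read 31.9, 21.6 and 26.6 RPKM in the anterior and 160.1, 125 and 147 RPKM in the posterior (2.43 ± 0.19, adjusted p = 0.00345). Tnn, tenascin N, read 4.18, 3.86 and 3.66 against 11.5, 36.6 and 24.4 RPKM (2.45 ± 0.39, adjusted p = 0.0405). Thbs2, thrombospondin 2, Col2a1, the main cartilage collagen, Sulf2, a heparan sulfate sulfatase, and Col11a1 had log2 fold changes of 1.66 ± 0.19, 1.61 ± 0.16, 1.07 ± 0.15 and 0.96 ± 0.15 (adjusted p = 0.0146, 0.0104, 0.0244 and 0.0381). The 1 anterior member was Hpse2, a heparanase-like protein, at 18.98, 31.4 and 23.8 RPKM against 0.168, 0.197 and 0.202 RPKM (-6.40 ± 0.20, adjusted p = 6.03e-05). This was the largest anterior difference of the 145 with the pseudocount of 0.1, but at 0.01 Ambn (-7.69), Mirlet7e (-7.66) and Gkn3 (-7.37) exceeded Hpse2 (-6.93), and at 1 Alx1 (-5.34) exceeded it (-4.41).

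The remaining genes of the largest differences were of mixed kinds. Pcp4, a small calmodulin regulator of neurons, had the largest posterior difference, at 140.0, 35.4 and 77.7 RPKM against 0.560, 0.260 and 0 RPKM (7.99 ± 0.76, adjusted p = 0.00956). Nefm, the medium neurofilament chain, read 11.5, 6.05 and 6.62 RPKM against 0.129, 0.206 and 0.481 RPKM (4.51 ± 0.39, adjusted p = 0.00575), and Phactr1, a phosphatase and actin regulator, read 11.8, 8.91 and 9.91 against 0.673, 1.17 and 0.728 RPKM (3.45 ± 0.22, adjusted p = 0.00201). None of the 3 overlapped between the groups. Ptgfr, the prostaglandin F receptor, passed at 2.70 ± 0.42 (adjusted p = 0.0365) but in only 1 of the 6 fits that left out a library (highest adjusted p = 0.142, and 0.0576 without posterior replicate 1). In the anterior, Ambn, the enamel matrix protein ameloblastin, read 20.6, 13.2 and 9.90 RPKM against 0.123, 0.221 and 0 RPKM (-6.18 ± 0.46, adjusted p = 0.00331). Gkn3, of the gastrokine family, read 7.16, 5.22 and 7.34 against 0.595, 0 and 0 RPKM (-5.11 ± 0.73, adjusted p = 0.0282). The Gkn3 call held in only 1 of the 6 fits that left out a library (highest adjusted p = 0.143), was lost with a pseudocount of 0.01, quantile normalization, a variance trend or no filter, and its log2 fold change ranged from -7.37 to -2.68 over the alternatives. The amine oxidase Aoc3, the zinc finger gene Zmat4 and the transcript 9130206I24Rik had log2 fold changes of -3.39 ± 0.24, -3.28 ± 0.35 and -3.86 ± 0.39 (adjusted p = 0.00283, 0.0122 and 0.0107). The let-7e locus Mirlet7e (-5.41 ± 0.84, adjusted p = 0.0364) and the antisense transcript Foxl2os (-3.71 ± 0.54, adjusted p = 0.0292) each kept the call in only 1 of the 6 fits that left out a library (highest adjusted p = 0.178 and 0.148, and 0.0563 and 0.0545 without posterior replicate 1). Mirlet7e also lost it with a pseudocount of 0.01, a variance trend, no filter or all 25 libraries in one fit, and Foxl2os with a replicate block or no filter. The Mirlet7e value counts sequence reads over the locus and is not a measure of the mature miRNA.

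**Figure D3:**
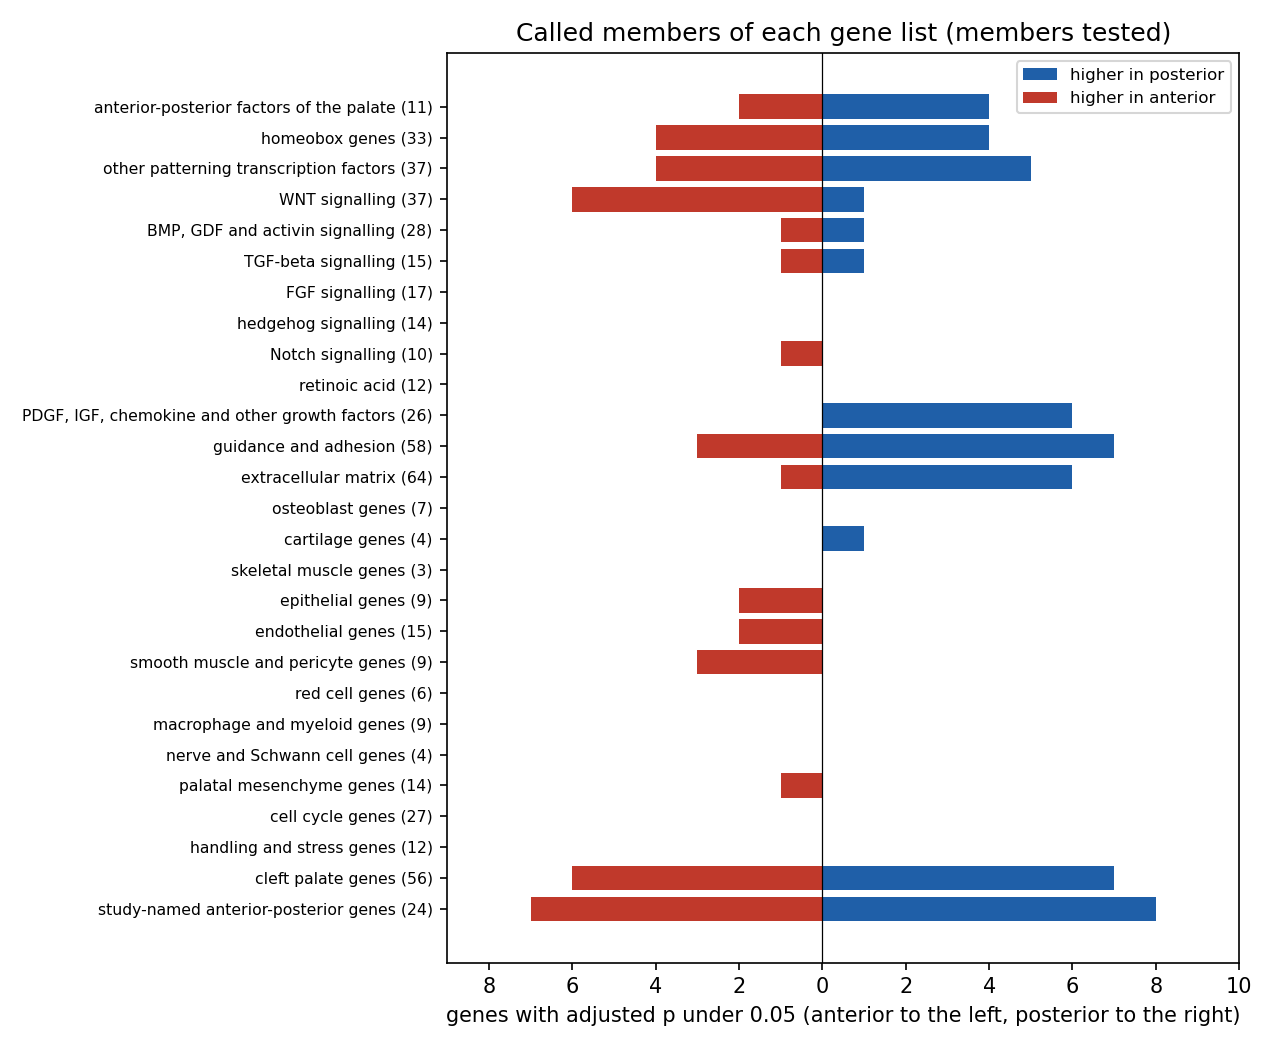
Number of members with an adjusted p under 0.05 in each gene list, to the left for genes higher in the anterior and to the right for genes higher in the posterior; the number of members tested stands in brackets. WNT signalling has 6 anterior and 1 posterior member, and the growth factor list 0 anterior and 6 posterior members.

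Markers of some other cell types differed between the groups, and in bulk samples fewer cells of a type and less RNA per cell cannot be told apart. Of 9 tested smooth muscle and pericyte genes, 3 were higher in the anterior and 0 in the posterior, with a median of -2.03. The shares over all tested genes were 0.708% in the anterior and 0.679% in the posterior. Actg2, smooth muscle gamma actin, read 18.5, 21.9 and 17.0 RPKM in the anterior and 0.238, 0.592 and 0.605 RPKM in the posterior (-5.12 ± 0.30, adjusted p = 0.00170). Acta2, smooth muscle alpha actin, read 53.6, 52.2 and 53.5 against 12.9, 16.0 and 6.95 RPKM (-2.22 ± 0.30, adjusted p = 0.0215), and Abcc9, a potassium channel subunit of pericytes, was also lower in the posterior (-2.03 ± 0.33, adjusted p = 0.0428). The groups were well separated in all 3 genes, and the summed list stood at 166 to 172 RPKM in the anterior and at 44.1 to 69.9 RPKM in the posterior. Without posterior replicate 1, 6 of the 9 passed in the anterior. Actg2 passed with each of the 6 libraries left out. Acta2 lost its call when any anterior library was left out (limma adjusted p up to 0.120). Abcc9 lost it when any anterior library or posterior replicate 3 was left out (up to 0.211). The gap junction genes of arterial endothelium, Gja5 and Gja4, were called in the anterior (-3.16 ± 0.47 and -1.75 ± 0.17, adjusted p = 0.0306 and 0.00956), while the other 13 tested endothelial genes, including Pecam1, Cdh5 and Kdr, did not pass and the summed list was 305 to 347 RPKM against 237 to 293 RPKM. The Gja5 call was lost when any anterior library or posterior replicate 3 was left out (limma adjusted p up to 0.149). The Gja4 call was lost without anterior replicate 3 (0.0669).

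Epithelial genes summed to 71.1 to 141 RPKM in the anterior and 47.7 to 75.7 RPKM in the posterior, ranges that overlapped. Krt8, a simple epithelial keratin, at 6.16, 11.1 and 6.02 against 0.654, 0.698 and 0.952 RPKM (-3.13 ± 0.27, adjusted p = 0.00575), was among the 2 of 9 tested genes called in the anterior (median -0.62), whereas Krt5, Krt14, Krt15, Krt18, Krt19, Cdh3 and Perp did not pass. Skeletal muscle genes differed by library. Their sum was 9.97, 17.6 and 55.9 RPKM in the anterior and 351, 52.4 and 71.6 RPKM in the posterior, so posterior replicate 1 was the highest and anterior replicate 3 overlapped the posterior range. Mylpf and Actc1, fast muscle light chain and cardiac actin, read 0, 0.882 and 6.17 against 50.9, 7.78 and 10.8 RPKM, and 2.06, 2.88 and 11.1 against 53.3, 8.39 and 13.3 RPKM. None of the 3 tested muscle genes had an adjusted p under 0.05, and within the shared run the log2 fold changes of Mylpf and Actc1 were 0.56 and -0.07.

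Of the bone matrix genes, Ibsp read 0.734, 0.170 and 93.9 RPKM in the anterior and 6.55, 3.65 and 12.9 RPKM in the posterior, and Spp1, Bglap and Dmp1 were likewise highest in anterior replicate 3 (24.2, 5.6 and 10.6 RPKM, against at most 1.73, 0 and 0.794 RPKM in any other library). None of 7 tested osteoblast genes passed (median 0.61). Runx2, the osteoblast factor, read 18.1, 14.1 and 11.6 RPKM against 13.1, 69.2 and 52.6 RPKM, so that posterior replicate 1 stayed within the anterior range. In the cartilage list 1 of 4 tested genes, Col2a1, was higher in the posterior (median 0.96), with list sums of 46.6 to 56.8 RPKM in the anterior and 86.2 to 168 RPKM in the posterior. Mesenchymal genes had sums of 1270 to 1360 RPKM against 1280 to 1340 RPKM and 1 of 14 called (Tfap2a). No gene passed among 4 tested nerve, 9 myeloid, 6 red cell, 27 cell cycle and 12 handling and stress genes (medians -0.53, 0.44, 0.20, -0.02 and 0.06). The part of these cell types and of the 3 runs in the gene differences was not tested.

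**Figure D4:**
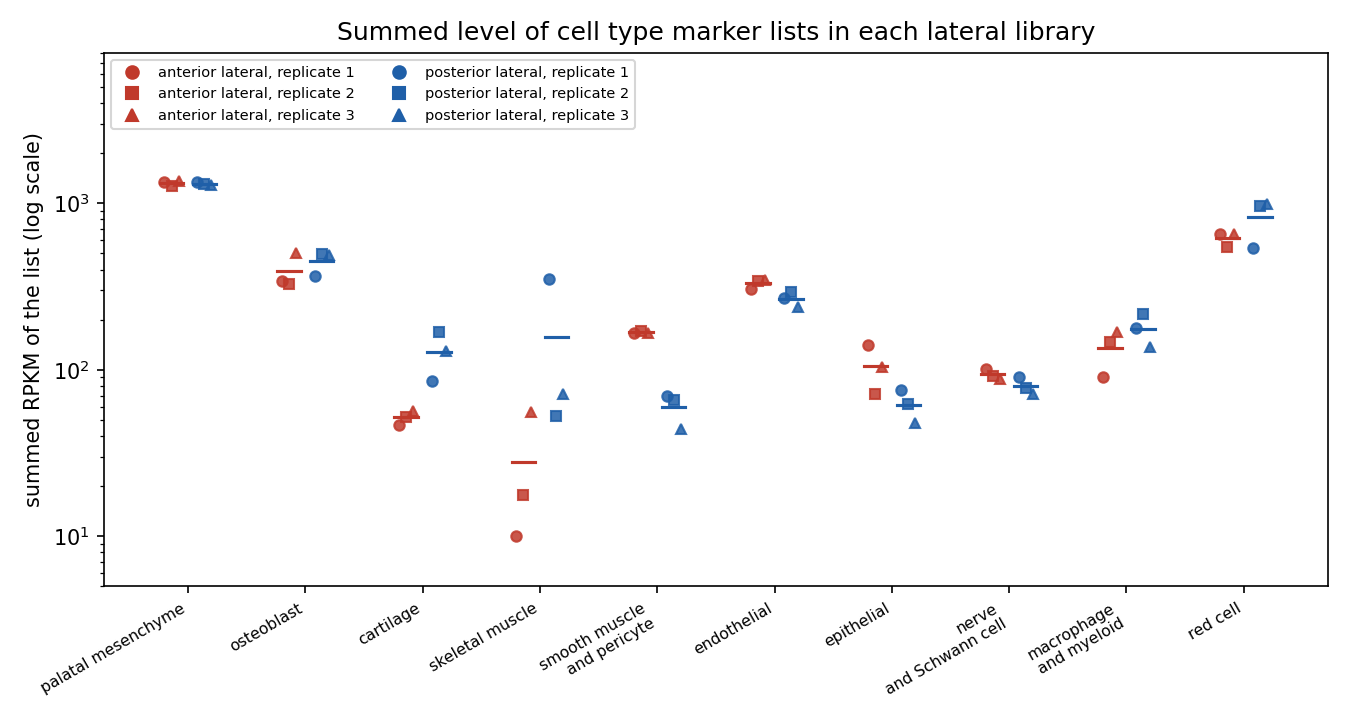
Summed RPKM of 10 cell type marker lists in each lateral library (logarithmic vertical axis), red for anterior and blue for posterior, with a bar at each group's mean. The smooth muscle and pericyte sum separates the groups (166 to 172 against 44.1 to 69.9 RPKM), the skeletal muscle sum is highest in posterior replicate 1 (351 RPKM), and the mesenchymal sums coincide.

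The genes of the lateral axis were then followed in the 19 libraries of the medial, oral and nasal compartments, none of which entered the lateral comparison. Oral and nasal tissue was cut across the same shelves, so it can include lateral tissue of other sections. There, with compartment as a term, 81 of the same 10452 genes were higher in the posterior (0.775%) and 116 in the anterior (1.11%). The direction was mostly the same: 67 of the 71 posterior and 72 of the 74 anterior lateral genes had the same sign, 95.9% together against 56% of all tested genes. The calls overlapped in part. Of the posterior genes, 31 were called in both, which is 43.7% of the lateral and 38.3% of the other calls, and of the anterior genes 35 were called in both, or 47.3% and 30.2%. The median log2 fold change of the called genes was 1.67 in lateral and 0.96 in the others for posterior genes, and -1.80 and -1.41 for anterior genes. The lateral values had chosen these genes. The sign was the same in medial, oral and nasal taken singly for 50 posterior and 50 anterior genes.

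Alx1 had log2 fold changes of -6.69, -5.59 and -4.64 in medial, oral and nasal, and Hpse2 of -6.51, -5.22 and -5.65. Barx1 was higher in the posterior by 4.34, 6.02 and 4.09 and Dlx1 by 5.11, 1.98 and 3.78. Those 4 genes had the sign of the lateral palate in every compartment. Others had mixed signs: Igf1 had log2 fold changes of -0.45, 1.05 and -0.42, Acta2 of 0.73, -0.93 and -0.57, and Ltbp2 of -3.05, -0.17 and 1.47. Tbx15, a T-box factor that overlapped between the lateral groups (9.30, 5.07 and 3.13 against 36.8, 3.53 and 8.92 RPKM), was higher in the anterior of the other compartments (-2.26, adjusted p = 0.00517).

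The difference between the lateral axis and the mean of the other 3 was tested directly over 11913 genes in all 25 libraries. No gene had an adjusted p under 0.05 by limma, with 0% above and 0% below 0, while at an unadjusted p under 0.05 there were 243, of which 30 belonged to the 145. The lateral difference that chose the 145 also enters this contrast, so the 30 are no separate result. The smallest adjusted p among the 145 was 0.728, reached among others by Slit2 (-1.36 ± 0.28, lateral less others) and Sertad4. The median SE of this difference was 0.517 on the log2 scale for the 145 genes, against 0.209 for the lateral difference itself.

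**Figure D5:**
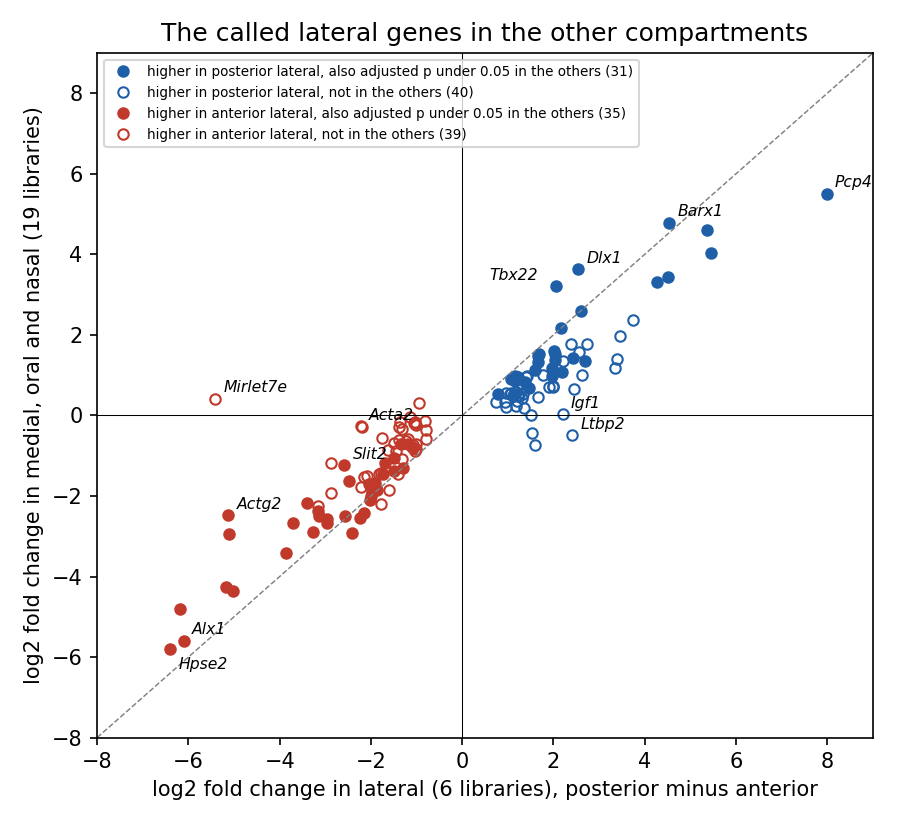
Log2 fold change, posterior minus anterior, of the 145 called genes in the 6 lateral libraries (horizontal axis) and in the 19 medial, oral and nasal libraries (vertical axis), with blue for genes higher in posterior and red for genes higher in anterior lateral palate. Filled points passed an adjusted p of 0.05 in both sets (31 and 35); the dashed line marks equal values, and most points lie between it and 0.

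Among 56 tested genes linked to cleft palate, 7 were higher in the posterior and 6 in the anterior, with a median of -0.15. For all tested genes the shares were 0.679% and 0.708%. The posterior genes were Meox2, Gsc, Tbx22, Pdgfc, Col2a1, Egfr and Col11a1 and the anterior genes included Alx1, Msx1, Tfap2a, Eya1 and Wnt5a, with their values given above. Of the 24 genes that the study named for the axis in all compartments pooled, 8 passed in the posterior and 7 in the anterior of the lateral palate. The study compared the pooled axis by the Audic-Claverie test with a minimum of 10 RPKM in 6 samples. Its test, filter and libraries were thus unlike those of the adjusted limma test used here. The list of 24 was chosen on data that include these libraries, so its directions are not independent evidence. Its 9 members that did not pass included Shox2, Gdf10, Inhba and Cxcl12, whose groups did not overlap. The others, with groups that overlapped, were Fgf18, Tbx15, Bmp3 (9.76, 11.5 and 15.0 against 23.9, 9.5 and 42.2 RPKM), Ctgf (10.3, 11.5 and 9.58 against 4.10, 14.6 and 9.03 RPKM) and Sall3.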

How the data were processed

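RNA was amplified from laser-captured tissue with a kit that does not mark strand and sequenced. The authors aligned the reads with TopHat to mm9, as the submitters' processing notes name them, removed multiply aligned and duplicate reads, and computed RPKM per gene in GeneSpring. The deposited table holds these RPKM values for 25 libraries, and no read counts were used. Sequencing runs were read from the alignment names that head the study's supplementary columns.

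Genes that reached 5 RPKM in 3 or more lateral libraries were tested on log2(RPKM + 0.1) with limma 3.58.1 in R 4.3.3 and Benjamini-Hochberg adjustment over all tested genes. Fold changes are therefore on the log2(RPKM + 0.1) scale, which understates those of low genes. The other compartments were fitted with compartment as a term, and the difference between lateral and the rest in all 25 libraries. In simulated data of 10452 genes for the lateral comparison, 52% of genes changed by 1 on the log2 scale and 90% of those changed by 2 were called, with 5 false calls among 173. The simulated libraries were independent, with the same spread for a gene in every library. They held no outlying library and no run effect, so these rates cannot be carried over to the real libraries. The depth implied by the values was 2330000 to 5930000 reads per library after that filtering, and errors from it cover counting only.

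The members and gene lists were chosen with earlier results of these data known. Genes were picked for description as the 12 largest called differences in each direction with groups that did not overlap, up to 4 called members of each list and direction by size (or, with none called, by the study thresholds), and all genes the study named for the axis. A further part, up to 6 genes in each direction from the difference test, picked none. Other list members, among them Npas3, Frzb, Rspo1, Ptn, Ntf3, Flrt2, Sema3d, Sema6a, Sulf2, Col11a1, Runx2, Ibsp and Krt14, as well as Sertad4, were added after their values were seen. Some genes picked by the rule are not reported here. Promoters came from RefSeq on GRCm38.p6 and matched 8218 of the 10452 tested genes. Gene coordinates are those of the deposited table. Alternatives covered the pseudocount, scaling, the filter, a variance trend, a replicate block, a run term, a fit of all libraries and each library left out. Figures were drawn with matplotlib 3.10.9.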

Additional observations from a re-analysis of the deposited data

How the results depend on the processing

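Against 71 posterior and 74 anterior calls by limma, removing the 5 RPKM filter gave 36 and 43, the run as a term gave 4 and 7 over 25 libraries and 8 and 11 over the 6 lateral ones, and fitting all 25 libraries together left 35 anterior calls. The study thresholds gave 467 and 578 genes without the filter and 83 and 102 with a minimum of 10 RPKM, and 113 anterior genes with the run term over 25 libraries. Distinct gene list members called, 31 posterior and 26 anterior, became 4 and 16 without the filter, 3 and 5 and then 0 and 6 with the run terms (293 and 1090 of all tested genes at an unadjusted p under 0.05), and 16 anterior with all libraries in one fit. With each library left out, calls ranged from 5 to 112 and from 12 to 135, study thresholds from 132 to 167 and from 154 to 230, and list members from 1 to 39 and from 8 to 39. The 81 and 116 calls of the other compartments fell to 30 and 43 with the run term and ranged from 54 to 152 and from 86 to 164 with 1 library left out. The difference between compartments gave 0 calls under each alternative run. Actc1 turned to -0.075 under both run terms and Ctgf to 0.26, and Ctgf ranged from -0.77 to 0.14 with each library left out, above 0 without posterior lateral replicate 1. The causes of these changes were not tested.

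A replicate block gave 29 posterior and 36 anterior calls and 19 and 16 list members. Deviations of libraries with the same replicate number correlated at 0.114, 0.00961 and -0.00321, so the numbers were not taken to pair the libraries. All 145 called genes kept their sign under each alternative that tested them. Because their groups did not overlap, the sign was fixed in advance under most of these alternatives, so this is no measure of stability. Low depth limits genes near 5 RPKM most, and the run and the group are confounded outside 1 shared run.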
